A study of Mus musculus with 20 samples.

Results

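Activity-regulated and immediate early genes are the first genes that a neuron transcribes after synaptic or growth factor input. The 40 genes described here were chosen by symbol, as immediate early transcription factors and activity-induced effectors, and each was found as 1 row among the 21300 gene symbols of the deposited table. The values came from Affymetrix Mouse Exon 1.0 ST arrays of total RNA (Input) and of RNA recovered with the Fragile X protein FMRP after ultraviolet crosslinking (FMRP CLIP). The cells were cortical neurons from embryonic day 17 mice on a C57Bl6 background, kept for 8 days in vitro and crosslinked at 254 nm before lysis. Wild-type cultures and cultures of an Fmr1 knockout, which lack FMRP, gave 5 arrays each for Input and for CLIP. The 20 arrays in 4 groups were taken as 10 cultures, by genotype and replicate number. Because the knockout lacks FMRP, its CLIP holds the RNA that the procedure carries along without its target protein. The labels name no stimulus and no silencing of the cultures, and all values are those of cells at one age in vitro.

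Calcium entry through NMDA receptors and voltage-gated channels activates kinases that phosphorylate CREB and the serum response factor partners already sitting at these promoters, so that transcription starts without new protein synthesis. The first wave encodes transcription factors such as the Fos, Jun, Egr and Nr4a proteins, and a second group encodes effectors that act at the synapse, such as Arc and Bdnf. Others, such as the Dusp phosphatases, shut the upstream kinases off again. FMRP is an RNA-binding protein that represses translation and is found with polyribosomes and in dendrites.

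The promoters of the set were searched for the sites of the factors named above. RefSeq promoter windows, 300 bases long around the annotated start of a transcript (build GRCm38.p6), were at hand for 29 of the 40 genes. The full cAMP response element TGACGTCA, the site of CREB, which reads the same on both strands, was present in 4 of the 29 genes (13.8%) and in 2.03% of the 27025 symbols with a window. Its core TGACG on either strand, which also lies within each full one, was found in 22 of the 29 (75.9%) and in 23.1% of all symbols. The site bound by EGR proteins, GCGNGGGCG on either strand, was found in 10 (34.5%) against 6.27%. The CArG box of serum response factor was found in 2, Dusp5 and Egr2, against 1.81%. The pattern TGANTCA, which is wider than the AP-1 site TGA(C/G)TCA, was found in 1, Bdnf, against 8.97%. The match in Bdnf read TGAATCA and so was not the AP-1 site itself. A match of letters is a description of the window and not evidence of a bound factor. The 4 windows with the full element are printed with that element in capitals, because Plk2 is among the genes described further on and Btg2 had the lowest p of the set in the comparison of CLIP between genotypes.
Plk2: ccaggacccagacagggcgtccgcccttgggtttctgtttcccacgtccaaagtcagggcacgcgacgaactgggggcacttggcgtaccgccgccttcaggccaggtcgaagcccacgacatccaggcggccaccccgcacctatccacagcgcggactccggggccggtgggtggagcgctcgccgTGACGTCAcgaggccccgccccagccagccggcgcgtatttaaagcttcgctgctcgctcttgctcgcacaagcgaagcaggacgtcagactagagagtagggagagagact
Btg2: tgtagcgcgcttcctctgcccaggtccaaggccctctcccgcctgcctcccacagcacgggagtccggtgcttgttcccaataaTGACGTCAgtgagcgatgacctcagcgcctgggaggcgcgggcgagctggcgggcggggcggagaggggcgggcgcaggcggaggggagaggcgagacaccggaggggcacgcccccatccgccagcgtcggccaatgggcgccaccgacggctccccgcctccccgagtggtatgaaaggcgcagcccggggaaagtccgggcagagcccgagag
Dusp1: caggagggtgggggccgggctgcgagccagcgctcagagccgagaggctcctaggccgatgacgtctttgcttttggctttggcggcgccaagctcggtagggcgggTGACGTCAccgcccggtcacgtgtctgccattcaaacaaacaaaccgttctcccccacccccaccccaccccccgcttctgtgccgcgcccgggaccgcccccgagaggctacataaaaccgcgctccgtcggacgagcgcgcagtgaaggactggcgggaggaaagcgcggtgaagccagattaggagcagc
Maff: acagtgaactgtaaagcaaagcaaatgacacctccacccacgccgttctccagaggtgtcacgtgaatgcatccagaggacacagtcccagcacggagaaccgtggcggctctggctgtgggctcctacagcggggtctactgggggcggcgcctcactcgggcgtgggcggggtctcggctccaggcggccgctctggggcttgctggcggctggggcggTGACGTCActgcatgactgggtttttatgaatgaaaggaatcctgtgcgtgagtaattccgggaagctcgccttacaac
The Plk2 window lies at chr13:110394794-110395093 on the plus strand and the Maff window at chr15:79347270-79347569 on the plus strand. The Btg2 window lies at chr1:134079106-134079405 and the Dusp1 window at chr17:26508423-26508722, both on the minus strand. Counted from the annotated start as 0, the element began at position -62 in Plk2, -166 in Btg2, -143 in Dusp1 and -29 in Maff.

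The labels held for the knocked-out gene. Fmr1 read 6.49 ± 0.23 in wild-type CLIP and 3.92 ± 0.08 in knockout CLIP, and 5.69 ± 0.20 and 4.14 ± 0.16 in Input (log2 array values, SD, n = 5 each). Dgkk, the diacylglycerol kinase that gives the study its title, read 7.09 ± 0.49 in wild-type CLIP and 4.68 ± 0.18 in knockout CLIP. All 9 of 9 measured neuron markers had an Input mean above 4.5, and their summed signal lay between 12.9 and 13.4 on the log2 scale in every array. The 8 astrocyte markers were also measured above that level, with Slc1a3 highest at 8.67. So were the 8 oligodendrocyte lineage markers, with Olig1 highest at 8.70, and the 7 cycling progenitor markers, with Sox2 highest at 7.05. Below that level were 3 of 8 microglial and 4 of 6 endothelial markers. In such bulk samples, fewer cells of a type and less RNA per cell cannot be told apart. Of the 40 early genes, 8 had a group mean below 4.5, close to the signal of Fmr1 in the knockout: Fos, Fosl1, Npas4, Bdnf, Maff, Gem, Ptgs2 and Crem. Maff and Crem were below it in all 4 groups.

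The first question was whether any early gene RNA was recovered with FMRP beyond the background of the knockout precipitate. None of the 40 differed between wild-type and knockout CLIP at an adjusted p under 0.05 (limma, Benjamini-Hochberg over all 21300 symbols), where 26 symbols, 0.122% of all, passed. None reached an unadjusted p under 0.05 either, against 7.19% of all symbols, and the 2 groups of 5 arrays overlapped for every member, where 1.38% of all symbols had all wild-type arrays above and 0.291% all below the knockout. The differences, wild type minus knockout on the log2 scale, ran from -0.23 to 0.37. Their median was 0.03 beside 0.02 over all symbols, and 26 of the 40 (65.0%) were above 0, against 57.0% of all symbols.

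Btg2, an antiproliferative protein that recruits the mRNA deadenylation machinery, had the lowest p of the set. It read 6.53, 6.08, 6.27, 5.75 and 6.06 in wild-type CLIP and 6.21, 6.25, 6.26, 6.55 and 6.57 in knockout CLIP. The wild-type arrays spanned a wider range that took in most of the knockout values, and the difference of -0.23 (SE 0.14) had an adjusted p of 0.858. Fosl1, the Fos family member Fra-1, read 4.47, 4.76, 4.90, 4.60 and 4.52 in wild-type CLIP and 4.27, 4.54, 4.10, 4.75 and 4.54 in knockout CLIP. Its difference of 0.21 (SE 0.13, adjusted p 0.866) was within the spread of the knockout arrays. Klf4, a zinc-finger factor, read 4.92, 5.48, 5.25, 4.82 and 4.85 in wild-type CLIP and 4.50, 4.97, 4.97, 5.07 and 4.67 in knockout CLIP, with 2 wild-type arrays above every knockout array. Its difference was 0.23 (SE 0.15, adjusted p 0.896).

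Inhba, which encodes the subunit of activin A, had the largest difference in CLIP, 0.37 (SE 0.25), and also the widest spread. Its values were 7.57, 7.23, 8.10, 8.46 and 8.51 in wild-type CLIP and 7.49, 7.24, 7.25, 7.94 and 8.07 in knockout CLIP. In both genotypes the arrays numbered 4 and 5 were the highest, and the interval of the difference, -0.17 to 0.92, includes 0 (adjusted p 0.912). For the effectors Arc and Bdnf the intervals were narrower. Arc, a postsynaptic protein that promotes removal of AMPA receptors, differed by 0.14 (95% interval -0.07 to 0.35), and Bdnf, a secreted neurotrophin, by 0.02 (-0.19 to 0.23). The interval of Arc bounds what 5 arrays against 5 could show, and neither interval shows equal recovery. Bdnf averaged 4.25 in wild-type CLIP and 4.23 in knockout CLIP, near the 3.92 of Fmr1 in knockout CLIP. Differences at so low a signal can be reduced on these arrays, so the narrow interval of Bdnf does not bound the recovery of its RNA. How far they are reduced was not tested. Dgkk was as dim in wild-type Input, at a mean of 4.34, and read 7.09 in wild-type CLIP.

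**Figure D1:**
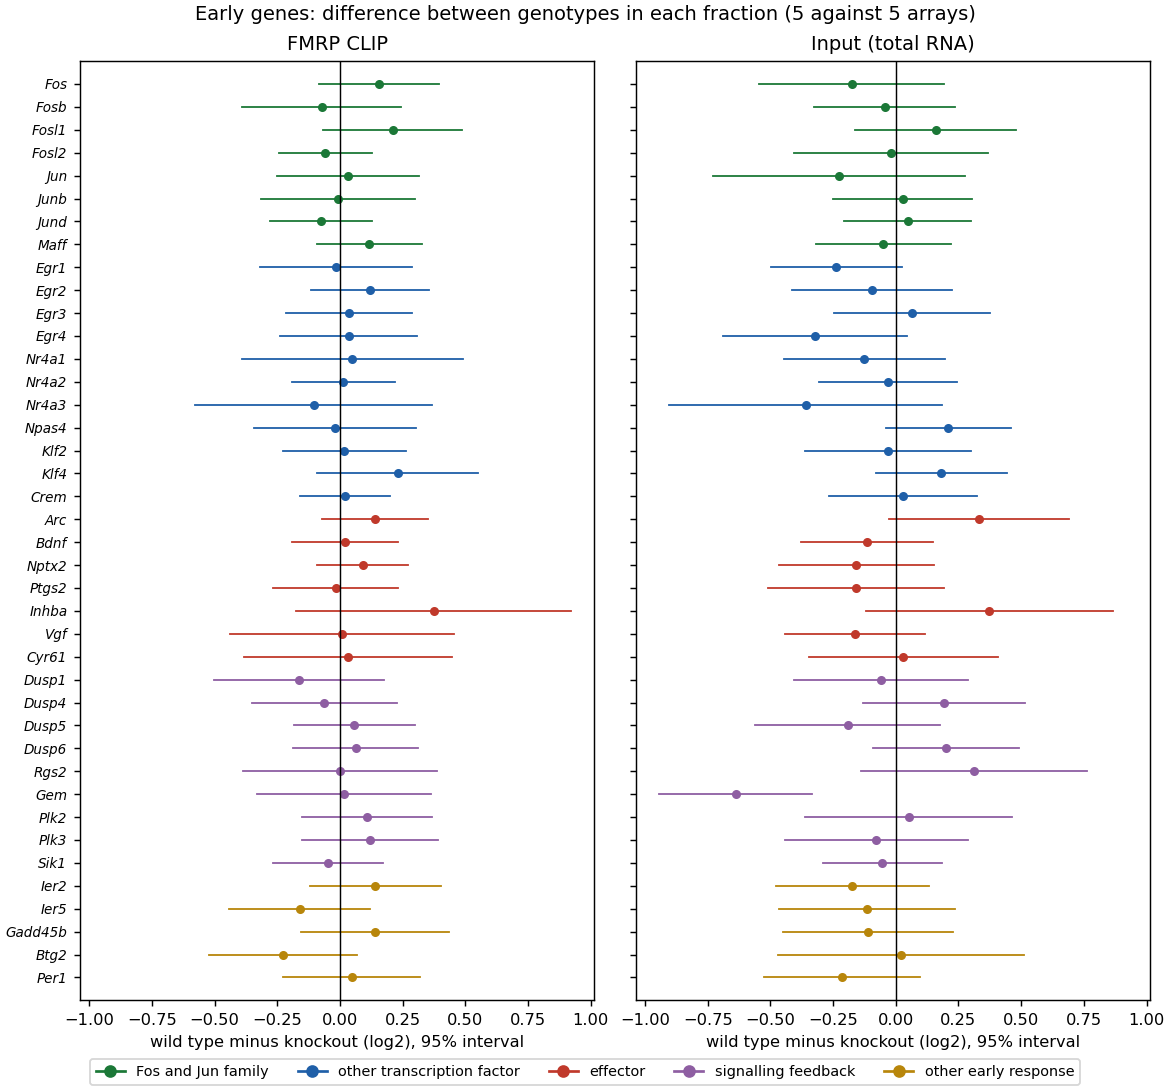
Difference between genotypes (wild type minus knockout, log2) for each of the 40 early genes in CLIP (left) and Input (right), with points for the limma estimate, lines for its 95% interval and colours for the role of the gene. In CLIP every interval includes 0, and in Input the interval of Gem, -0.94 to -0.33, lies apart from 0.

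In Input, which asks whether the early gene RNAs themselves differed between the cultures, again 0 of 40 were called, as against 1 symbol (0.00469%) of all, Fmr1 itself. By the exact permutation test on each member alone (two-sided, all splits of 5 against 5, smallest possible p 0.00794), 3 of 40 were under 0.05 before any adjustment, Gem, Egr1 and Npas4, where 3.85% of all symbols were by the same test. The limma count at an unadjusted p under 0.05 was 1 member, Gem, where 3.71% of all symbols were. The median difference was -0.05 beside -0.01 over all symbols, and 25 of 40 were lower in wild type than in knockout. That left 37.5% of the members above 0, against 46.5% of all symbols.

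Gem encodes a small GTPase of the RGK family that holds voltage-gated calcium channels in check. Its Input values were 3.88, 4.21, 3.93, 4.37 and 4.27 in the wild-type cultures and 4.84, 5.02, 4.66, 4.45 and 4.88 in knockout. All 5 knockout arrays were above all 5 wild-type arrays, which held for 0.282% of all symbols in this direction. The difference was -0.64 (SE 0.14, 95% interval -0.94 to -0.33), with an exact permutation p of 0.00794, the smallest the design allows. Gem ranked seventh of all symbols by p, and its p adjusted over all symbols was 0.9999, so it does not pass the test. In CLIP, Gem read 4.11 ± 0.38 in wild type and 4.09 ± 0.16 in knockout (SD, n = 5).

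Arc read 5.72, 5.77, 5.78, 5.74 and 5.83 in wild-type Input and 4.86, 5.62, 5.22, 5.89 and 5.58 in knockout Input. The wild-type cultures sat close together (SD 0.04), while the knockout cultures spread widely (SD 0.40), with 4 of 5 below every wild-type array and 1 just above. The difference was 0.33 (SE 0.17; exact permutation p 0.0873, adjusted p 0.9999 by limma). Egr1, the zinc-finger factor also called Zif268, read 5.43, 5.37, 5.40, 5.45 and 5.65 in wild-type Input and 5.66, 5.57, 5.71, 5.54 and 6.0 in knockout Input. The groups overlapped through 1 wild-type array, and the difference was -0.24 (SE 0.12, exact permutation p 0.0238, adjusted p 0.9999). Egr4, a member of the same family, read 4.86, 5.54, 5.21, 5.35 and 5.38 in wild-type Input and 5.13, 6.05, 5.54, 5.66 and 5.58 in knockout, a difference of -0.32 (SE 0.17). In both genotypes array 1 was the lowest and array 2 the highest for Egr4. Npas4, a neuron-specific factor induced by depolarisation, differed the other way, by 0.21 (SE 0.12, exact permutation p 0.0317, adjusted p 0.9999).

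The second question was which early gene RNAs were over- or under-represented in the precipitate relative to total RNA, in neurons with FMRP and in neurons without it. In wild type 10 of 40 members (25.0%) differed between CLIP and Input, 7 higher and 3 lower, against 33.4% of all symbols called (17.1% higher and 16.3% lower). In the knockout 11 (27.5%) differed, 4 higher and 7 lower, against 34.4% (16.1% higher and 18.4% lower). Both shares are below that of the whole array. The median of the members was -0.03 in wild type and -0.09 in knockout, beside -0.09 and -0.13 over all symbols. Of the members, 7, or 70.0% of the wild-type calls and 63.6% of the knockout calls, were called in both and moved the same way, and 26 were called in neither. The overlap of calls was not counted over all symbols, so these shares cannot be read as particular to the members. Inhba, Npas4, Per1 and Plk2 were higher in CLIP in both genotypes, and Ier5, Jund and Ptgs2 were lower in both.

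**Figure D2:**
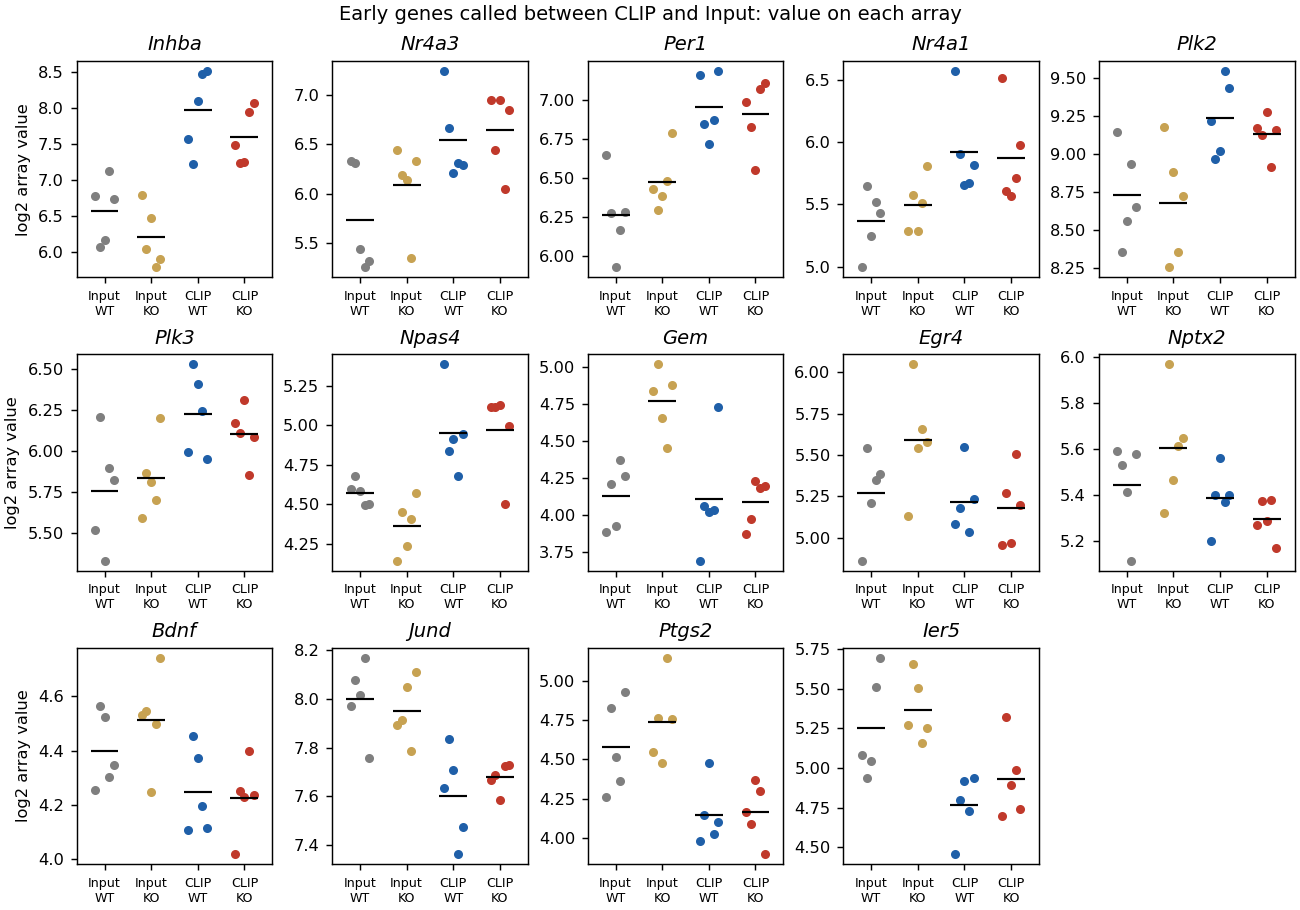
Log2 array value of the 14 early genes called between CLIP and Input in at least 1 genotype, on each of the 20 arrays (points), with the mean of each group of 5 (bar). Each panel has its own vertical range, and points within a group stand in the order of the replicate numbers. Inhba is higher in CLIP in both genotypes, and Gem stands out in the knockout Input alone.

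Among the effectors, Inhba differed most. In wild type it read 6.79, 6.07, 6.18, 7.13 and 6.74 in Input against 7.23 to 8.51 in CLIP, and in knockout 6.80, 6.04, 6.48, 5.79 and 5.92 against 7.24 to 8.07. CLIP was above Input on all arrays of both genotypes. The difference was 1.39 in wild type (SE 0.26, adjusted p 1.89e-04) and 1.39 in knockout (SE 0.26, adjusted p 2.40e-04), the same measured difference with and without FMRP. Within cultures it ran from 0.78 to 1.92 in wild type and from 0.69 to 2.16 in knockout.

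Ptgs2, which encodes the inducible prostaglandin synthase COX-2, was lower in CLIP. It averaged 4.15 in wild-type CLIP and 4.16 in knockout CLIP, near the 3.92 of Fmr1 in knockout CLIP. The size of its depletion therefore cannot be read. Ptgs2 read 3.98, 4.15, 4.48, 4.02 and 4.10 in wild-type CLIP against 4.26, 4.83, 4.51, 4.36 and 4.93 in Input, and 4.16, 4.08, 4.37, 4.30 and 3.90 in knockout CLIP against 4.55, 4.77, 4.48, 5.15 and 4.76 in Input. The groups overlapped in wild type and were apart in knockout, and CLIP was the lower in 5 of 5 cultures of each. The differences were -0.43 (SE 0.15, adjusted p 0.0250) and -0.58 (SE 0.15, adjusted p 0.00418). The wild-type call was lost without CLIP replicate 1 or 4 or Input replicate 2 or 5 of wild type (adjusted p up to 0.0816) and after quantile normalization (0.0561). The neurotrophin Bdnf and Nptx2, a secreted pentraxin that clusters AMPA receptors, were called in the knockout alone. Bdnf read 4.02, 4.25, 4.23, 4.40 and 4.24 in knockout CLIP and 4.53, 4.55, 4.25, 4.50 and 4.74 in Input, a difference of -0.29 (SE 0.11, adjusted p 0.0439) with 5 of 5 cultures lower. Nptx2 read 5.27, 5.37, 5.29, 5.38 and 5.17 against 5.32, 5.97, 5.46, 5.61 and 5.65, a difference of -0.31 (SE 0.12, adjusted p 0.0461). Both calls sat at the threshold. Bdnf averaged 4.23 in knockout CLIP, also near that 3.92 of Fmr1, so the size of its depletion cannot be read either. Bdnf was lost under quantile normalization (adjusted p 0.375), with a filter on dim symbols (0.0538) and in 9 of 20 fits that left out 1 array, up to 0.121: those of knockout CLIP 1, 2, 3 and 5, knockout Input 1, 2, 4 and 5, and wild-type CLIP 4. Nptx2 was lost with that filter (0.0534), with a trended robust prior (0.0560) and in 11 of 20, up to 0.151: knockout CLIP 1, 2, 3 and 5, knockout Input 2, 4 and 5, wild-type CLIP 2, 4 and 5, and wild-type Input 3. Arc, Vgf and Cyr61, the other effectors, were called in neither genotype, with differences between -0.16 and 0.14.

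Among the transcription factors, Npas4 was higher in CLIP in both genotypes. It read 5.39, 4.84, 4.91, 4.68 and 4.95 in wild-type CLIP against 4.60, 4.68, 4.58, 4.50 and 4.50 in Input, and 5.11, 5.12, 5.13, 4.50 and 5.00 in knockout CLIP against 4.14, 4.45, 4.24, 4.41 and 4.57 in Input. In 5 of 5 cultures of each genotype CLIP was the higher, by 0.38 (SE 0.13, adjusted p 0.0305) in wild type and 0.61 (SE 0.13, adjusted p 0.00120) in knockout. The wild-type call was lost without wild-type CLIP 1 or 5 or wild-type Input 4 or 5 (adjusted p up to 0.113). The orphan nuclear receptors Nr4a1 and Nr4a3 were called in wild type alone. Nr4a3 read 7.24, 6.67, 6.21, 6.31 and 6.29 in wild-type CLIP and 6.33, 6.31, 5.44, 5.26 and 5.32 in Input, a difference of 0.81 (SE 0.25, adjusted p 0.0161). In knockout it read 6.95, 6.45, 6.95, 6.05 and 6.85 in CLIP and 6.44, 6.19, 6.14, 5.35 and 6.34 in Input. CLIP was above Input in 5 of 5 knockout cultures as well, and with the culture as a block that difference of 0.56 was called (adjusted p 0.00158). The wild-type call of Nr4a3 was lost without wild-type CLIP 1 (0.0613) and after quantile normalization (0.0571).

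Nr4a1 read 6.57, 5.90, 5.65, 5.67 and 5.82 in wild-type CLIP and 5.00, 5.65, 5.25, 5.52 and 5.43 in Input. Array 1 of wild-type CLIP stood well above the other 4, and array 1 of knockout CLIP did so too, at 6.51 beside 5.60, 5.57, 5.71 and 5.97. The difference was 0.55 (SE 0.18, adjusted p 0.0240) in wild type, and it was lost without wild-type CLIP 1 or wild-type Input 1 or 3 (adjusted p up to 0.0918). In knockout the difference of Nr4a1 was 0.38 (SE 0.18, adjusted p 0.112), above 0 in 5 of 5 cultures and not called. Nr4a2 was near 0 in both genotypes, at 0.01 and -0.03. Egr4 was lower in knockout CLIP, with 4.96, 5.27, 4.97, 5.51 and 5.20 against the Input values given above, a difference of -0.41 (SE 0.16, adjusted p 0.0439). This call was lost in 10 of 20 fits that left out 1 array (adjusted p up to 0.145): knockout CLIP 1, 2, 3 and 5, knockout Input 2, 3, 4 and 5, and wild-type CLIP 2 and 5. Egr1, Egr2, Egr3, Klf2, Klf4 and Crem were called in neither genotype, but Egr2 (adjusted p 0.0420) and Klf2 (0.0457) passed in the knockout with the culture as a block, and Klf2 in wild type after median centring (0.0485).

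Of the Fos and Jun family and Maff, only Jund was called. Jund is an AP-1 subunit that is expressed constitutively and induced less than Jun or Junb. It read 7.63, 7.84, 7.71, 7.36 and 7.48 in wild-type CLIP against 7.97, 8.08, 8.02, 8.17 and 7.76 in Input, and 7.67, 7.69, 7.58, 7.72 and 7.73 in knockout CLIP against 7.89, 7.91, 8.05, 7.79 and 8.11 in Input. CLIP was the lower in all 10 cultures, by -0.39 (SE 0.10, adjusted p 0.00478) in wild type and -0.27 (SE 0.10, adjusted p 0.0449) in knockout. The knockout call was lost with the culture as a block (adjusted p 0.0558), after median centring (0.0664), with the filter on dim symbols (0.0568), with the trended robust prior (0.0779) and in 9 of 20 fits that left out 1 array (up to 0.108): any of the 5 knockout CLIP arrays, wild-type CLIP 1, and knockout Input 2, 3 and 5. Fos, the classical early gene, differed by -0.02 in wild type and -0.35 in knockout and was called in neither. Jun was at 0.41 in wild type, called only with the culture as a block (adjusted p 0.0377), and Fosb, Fosl1, Fosl2, Junb and Maff lay between -0.15 and 0.11.

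Of the signalling regulators, Plk2 was higher in CLIP in both genotypes and Plk3 was called in wild type alone. Plk2, a Polo-like kinase that weakens overactive synapses and carries the full cAMP response element printed above, read 9.22, 8.97, 9.02, 9.54 and 9.43 in wild-type CLIP and 9.14, 8.36, 8.56, 8.93 and 8.65 in Input. In knockout it read 9.17, 9.12, 9.27, 8.91 and 9.16 against 9.17, 8.26, 8.88, 8.36 and 8.72. CLIP was higher in 5 of 5 wild-type and 4 of 5 knockout cultures, with culture 1 near 0 in both genotypes. The differences were 0.51 (SE 0.17, adjusted p 0.0228) and 0.45 (SE 0.17, adjusted p 0.0411). The first was lost without wild-type CLIP 4 or 5 or Input 2 or 3 (up to 0.0741), the second without knockout CLIP 1, 2, 3 or 5 or Input 2, 4 or 5 (up to 0.130) and after median centring (0.0554). Plk3, a related kinase, read 6.0, 6.53, 6.41, 6.24 and 5.95 in wild-type CLIP and 5.52, 6.21, 5.33, 5.90 and 5.82 in Input, a difference of 0.47 (SE 0.15, adjusted p 0.0222). It was lost without wild-type CLIP 2 or 3 or Input 1 or 3 (up to 0.0791) and after quantile normalization (0.132). In knockout the difference of Plk3 was 0.27 (SE 0.15, adjusted p 0.170), above 0 in 4 of 5 cultures and not called.

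Gem was lower in CLIP than in Input in the knockout alone, by -0.68 (SE 0.15, adjusted p 0.00181), where CLIP read 3.87, 3.98, 4.23, 4.18 and 4.20. This value uses the same knockout Input arrays that stood above wild type, so it is not a separate observation. Gem averaged 4.09 in knockout CLIP, 4.11 in wild-type CLIP and 4.13 in wild-type Input. Fmr1 in the knockout averaged 3.92 in CLIP and 4.14 in Input. At so low a signal the size of a depletion in CLIP cannot be read. Rgs2, which accelerates the switching off of G proteins, was at -0.53 in wild type (adjusted p 0.0507) and was called with the culture as a block (0.0314), after quantile normalization (0.00502), with the filter (0.0460) and with the trended prior (0.0474). The phosphatases Dusp1, Dusp4, Dusp5 and Dusp6 lay between -0.33 and -0.01 in both genotypes, and Sik1, a kinase that restrains CREB co-activators, was at 0.05 in each. None of these 5 was called, except Dusp1 in wild type after quantile normalization (-0.47, adjusted p 0.0387).

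In the remaining role, Per1, a repressor of the circadian clock that CREB induces, was higher in CLIP. It read 7.16, 6.85, 6.72, 6.87 and 7.18 in wild-type CLIP and 6.65, 6.27, 5.93, 6.17 and 6.28 in Input, and 6.98, 6.82, 6.55, 7.07 and 7.10 in knockout CLIP and 6.43, 6.29, 6.39, 6.48 and 6.79 in Input. The wild-type groups did not overlap, and CLIP was higher in all 10 cultures. The differences were 0.69 (SE 0.14, adjusted p 4.18e-04) and 0.43 (SE 0.14, adjusted p 0.0195). The knockout call was lost without knockout CLIP 5 or Input 2 (up to 0.0568) and after quantile normalization (0.207). Ier5, a nuclear protein of the immediate early response, was lower in CLIP, with 4.46, 4.80, 4.92, 4.73 and 4.93 against 5.08, 4.94, 5.04, 5.51 and 5.70 in wild type and 4.70, 5.32, 4.89, 4.99 and 4.74 against 5.27, 5.66, 5.51, 5.16 and 5.25 in knockout. The differences were -0.49 (SE 0.15, adjusted p 0.0166) and -0.44 (SE 0.15, adjusted p 0.0292), with CLIP lower in all 10 cultures. The first was lost without wild-type CLIP 1 or Input 5 (up to 0.0605), the second without knockout CLIP 1, 3 or 5 or Input 2 or 3 (up to 0.0863) and after quantile normalization (0.0826). Ier2, Gadd45b and Btg2 were called in neither genotype.

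**Figure D3:**
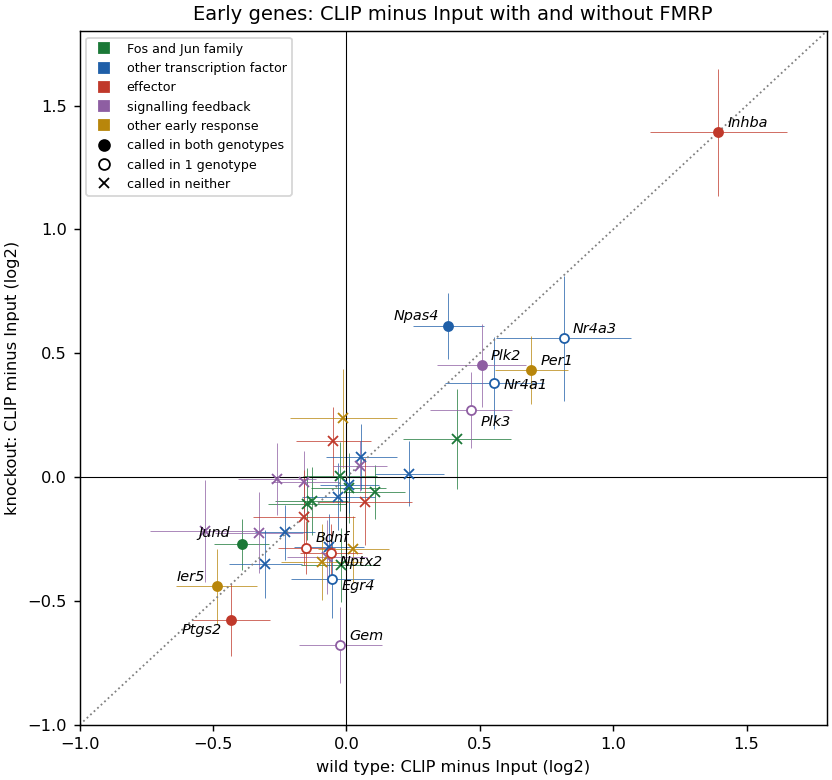
CLIP minus Input (log2) of the 40 early genes in wild type (horizontal) and knockout (vertical), with bars of 1 SE and the dotted line of equal values. Filled circles were called in both genotypes, open circles in 1 and crosses in neither. Inhba lies on the line at 1.39 in each genotype, and Gem lies furthest below it.

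The direct test of whether the difference between CLIP and Input depended on genotype called 0 of the 40 members, against 4 symbols (0.0188%) of all, and 1 member, Gem, had an unadjusted p under 0.05, against 4.19% of all symbols. A call in one genotype and not in the other is therefore no shown difference. The sign of CLIP minus Input was the same in both genotypes for 32 of 40, a share that was not counted over all symbols. Gem had the lowest p, with a difference of 0.66 between genotypes (SE 0.22, unadjusted p 0.00658, adjusted p 0.932). Its 5 wild-type cultures gave -0.19, -0.14, 0.09, -0.33 and 0.46 and its 5 knockout cultures -0.97, -1.04, -0.43, -0.27 and -0.68. Ier2 (0.32), Egr4 (0.36) and Fos (0.33) followed, each with an adjusted p of 0.9999. Ier2 read 4.92, 5.12, 4.96, 4.72 and 4.77 in wild-type CLIP, 4.37, 4.77, 4.87, 5.02 and 4.74 in knockout CLIP, 5.12, 4.66, 4.76, 4.95 and 4.85 in wild-type Input and 5.04, 4.93, 4.84, 4.93 and 5.48 in knockout Input. Fos read 4.13, 4.33, 4.57, 4.38 and 4.16 in wild-type CLIP, 4.07, 4.03, 4.02, 4.25 and 4.42 in knockout CLIP, 4.23, 4.82, 4.28, 4.01 and 4.34 in wild-type Input and 4.29, 4.85, 4.13, 4.70 and 4.60 in knockout Input. For both genes all 4 groups overlapped. For Inhba the difference was 0.00 with an interval from -0.75 to 0.75, so a sizeable part of its enrichment could differ between genotypes unseen at this number of arrays.

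Astrocyte markers moved with the same comparison. Their summed signal was 9.22 to 9.50 in wild-type CLIP and 9.41 to 9.81 in knockout CLIP, against 9.91 to 10.1 and 9.95 to 10.3 in Input, and 4 of 8 in wild type and 3 of 8 in knockout were called lower in CLIP, none higher. Of 9 neuron markers, 5 in wild type and 6 in knockout were called higher in CLIP and 1, Tubb3, lower in each. Over all symbols, 17.1% were called higher and 16.3% lower in wild type, and 16.1% and 18.4% in knockout. Of 7 inhibitory neuron markers, 2 were called higher and 2 lower in each genotype. Excitatory neuron markers had 2 of 6 higher in each and none lower. Called lower, with none higher, were 2 of 8 oligodendrocyte lineage markers in each genotype. So were 1 and 3 of 8 microglial and 1 and 2 of 6 endothelial markers, in wild type and knockout. Cycling progenitor markers had 3 of 7 higher and 1 lower in wild type, and 2 and 1 in knockout. The part of these markers in the differences of the early genes was not tested.

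The members varied between replicate cultures about as much as other genes in Input and somewhat more in CLIP. The median SD over members was 0.20 in wild-type CLIP and 0.19 in knockout CLIP, beside 0.17 in each over all symbols, and 0.22 and 0.24 in Input beside 0.22 and 0.25. Inhba was among the 3 most variable members in all 4 groups, with an SD of 0.56 in wild-type CLIP, and Nr4a3 had SDs of 0.54 in wild-type Input and 0.43 in knockout Input. Vgf, the precursor of several secreted neuropeptides, had an SD of 0.52 in wild-type CLIP, from 1 array at 7.38 beside 4 between 6.09 and 6.55. In Jun, the knockout Input arrays ran from 6.51 to 7.75.

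**Figure D4:**
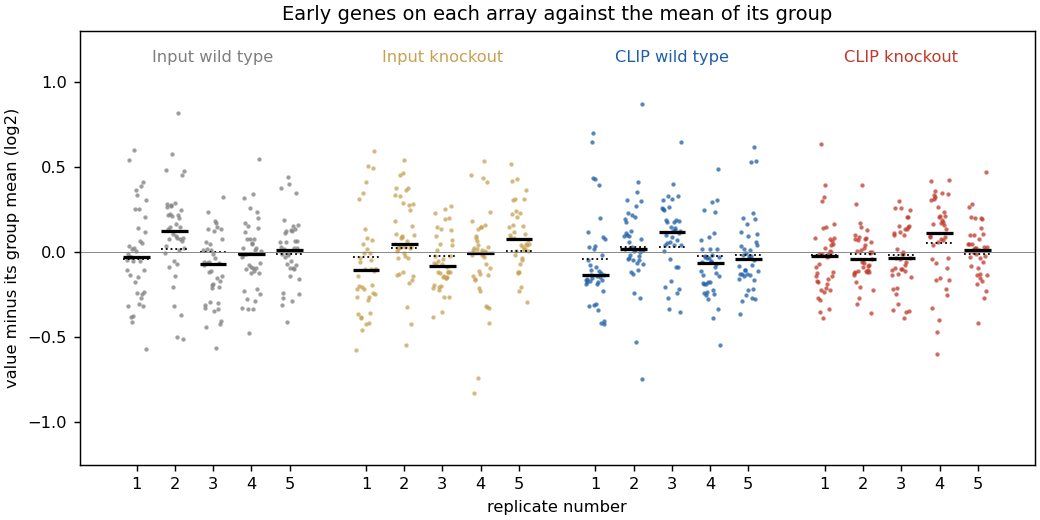
Value of each of the 40 early genes minus the mean of its group (log2, points), for each array by replicate number, with the median of the 40 (solid bar) and of all symbols (dotted bar). Array 3 of wild-type CLIP and array 2 of wild-type Input lie above their groups, at medians of 0.12 for both.

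Some arrays stood apart for many members at once. Wild-type Input 2 was above its group mean for 30 of 40 members and 53.6% of all symbols, with a median deviation of 0.12 over members and 0.02 over all symbols. It was the highest of its group for 16 members and 26.2% of all symbols. Knockout Input 2 was above for 27 members and 54.0% of all symbols, and the highest for 15 and 26.7%. Wild-type CLIP 3 was above for 30 members and 57.0% of all symbols (medians 0.12 and 0.03), and wild-type CLIP 1 for 12 and 41.2% (medians -0.13 and -0.04). In the knockout, Input 1 was above for 11 members and 46.7% of all symbols (medians -0.11 and -0.03), and Input 5 for 30 and 51.7% (medians 0.08 and 0.01). Knockout CLIP 4 was above for 27 members and was the highest for 16, but it was also above for 60.7% and the highest for 37.5% of all symbols (medians 0.12 and 0.05). These are shifts of single arrays against their own group mean, so their size is not comparable with a difference between group means. What the arrays share by replicate number was not recorded in the labels.

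Genes that act before and beside the set were read from lists chosen by general knowledge. Among 48 other activity-induced genes, 0 were called between genotypes in CLIP or Input or in the interaction. Spred1, an inhibitor of the Ras to MAP kinase pathway, came closest in CLIP, at 0.54 higher in wild type (adjusted p 0.0865), followed by Syt4 (-0.28), Ifrd1 (0.17) and Trib1 (0.16), with adjusted p of 0.702 and above. In Input the lowest p belonged to Trib1 (-0.35), Pcsk1 (-0.36), Penk (-0.46) and Tac1 (0.49), and in the interaction to Trib1 (0.51, adjusted p 0.770), Pcsk1 (0.37), Tac1 (-0.65) and Spred1 (0.46). Between CLIP and Input, wild type had 9 of the 48 called higher and 7 lower, and the knockout had 7 and 4. These are 33.3% and 22.9% of the list, at and below the 33.4% and 34.4% of all symbols. Homer1, a postsynaptic scaffold whose short form is an early gene, was higher by 0.82 and 0.80. Spred1 was higher by 1.07 in wild type and Myc by 0.71 in knockout, while Rheb, the activator of mTOR, was lower by -1.23 and -0.89. Tac1 was at -0.93 in wild type and Cdkn1a at -0.76 in knockout, both called.

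The other list holds 51 genes that carry the signal from calcium and MAP kinases to the early promoters, most of whose called members were higher in CLIP than in Input. In wild type 28 were higher and 1 lower (56.9%, against 33.4% of all symbols), with a median of 0.34 beside -0.09 over all symbols. In knockout 24 were higher and 0 lower (47.1%, against 34.4%), with a median of 0.22 beside -0.13. Crem belongs to both lists. Ep300, a CREB-binding acetyltransferase, was higher by 2.15 in wild type and 1.56 in knockout. The calcium-stimulated adenylyl cyclase Adcy1 was higher by 1.61 in wild type, and the L-type calcium channel Cacna1d by 1.35 in knockout. At the other end, Ppp3r1 (-0.55, not called) and the kinase subunit Prkaca (-0.36, called) were lowest in wild type, and Mef2b (-0.25) and Prkaca (-0.24), neither called, in knockout. None of the 51 was called between genotypes: Hdac5 (0.37, adjusted p 0.175), Adcy8 (0.34), Ep300 (0.40) and Prkacb (-0.33) had the lowest p in CLIP, and Crtc2 (-0.32), Atf1 (-0.28), Camk2d (0.39) and Adcy8 (-0.28) in Input. None was called in the interaction, where Adcy8 (0.62, adjusted p 0.679), Hdac5 (0.48), Atf1 (0.49) and Ep300 (0.59) had the lowest p.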

How the data were processed

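The authors' deposited table holds log2 values per gene for 20 arrays, summarised by RMA in Affymetrix Expression Console 1.1 per the submitters' processing notes. RMA adjusts background and scales arrays to each other, so changes shared by most genes and changes of dim genes can be reduced. Rows (24551, of which 1 had no symbol) were averaged per symbol, giving 21300. Array medians lay between 5.30 and 5.45. Probe-level signals were not used, and the number of arrays limits the precision.

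Group means were fitted by lmFit and eBayes (limma 3.58.1, R 4.3.3), with Benjamini-Hochberg adjustment over all symbols and a threshold of 0.05, without a replicate block: on 10 arrays for each comparison between genotypes, on all 20 for CLIP minus Input and the interaction. The fit was also run on simulated data with independent noise on each array. That setting leaves out correlations between arrays, so it does not check the unblocked fit for them. Exact permutation tests used scipy 1.17.1. The arrays of CLIP and Input with the same number and genotype were taken as 1 culture, because the authors' deposited ratios equal their log2 difference. Their deviations from the group means correlated at 0.060 to 0.261 in wild type and -0.128 to 0.455 in knockout. Blocked values stand where they change a call. The p-values measure the spread between cultures, and the labels do not say whether these came from separate litters. Members and lists were chosen with earlier results of these data known. All 40 members are named; those called, and the 4 of lowest p between genotypes and in the interaction, have their value on each array. Alternatives were quantile normalization, median centring, every row, a filter (above 4 in at least 2 arrays), a trended robust prior, the replicate block, 1 fit to 20 arrays, and leaving out each array.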

Additional observations from a re-analysis of the deposited data

Results flagged for a closer look

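Within the groups of 5 arrays, 160 combinations of member and group were examined for 1 array that stands apart from the other 4, and 6 did; chance alone gives about 1 in 20. Egr2 read 4.74 in knockout Input 1, with 5.15 as the next value. Nr4a1 read 6.57 in wild-type CLIP 1, with 5.90 next, and without that array its call between CLIP and Input in wild type is lost. Nr4a3 read 5.35 in knockout Input 4, with 6.14 next. Npas4 read 4.50 in knockout CLIP 4, with 5.00 next. Maff read 4.05 in wild-type Input 3, with 4.37 next, and Sik1 read 5.70 in wild-type CLIP 4, with 6.09 next. No member was called in the test of the genotype difference in CLIP minus Input, and for 0 members did all cultures of one genotype move against all of the other.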

How the results depend on the processing

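The counts of members called between genotypes (CLIP and Input) and in the interaction were 0 under every alternative run. The wild-type count between CLIP and Input, 10, was 9 to 12 under the other settings and 5 to 11 when 1 array was left out, with 5 without wild-type CLIP 1. The knockout count, 11, was 8 to 13 and 5 to 15, with 5 without knockout CLIP 1, 3 or 5 or Input 2, 6 without CLIP 2 or Input 5, and 7 without Input 4. Quantile normalization turned the wild-type split from 7 higher and 3 lower to 5 and 4, and moved the median of all symbols in the knockout from -0.13 to -0.02. With the replicate block, which pairs CLIP and Input of a culture, the counts were 12 and 13, and the block changed no other call than those given. Between genotypes the labels give same-numbered cultures no shared origin, and their deviations correlated for numbers 1 and 2 alone (0.442 and 0.190 in CLIP, 0.547 and 0.362 in Input, the other 3 from -0.266 to -0.058), so they were not taken as pairs; with the block 4 symbols were called in CLIP, against 26 without it, and 0 members. All symbols called in CLIP between genotypes ranged from 4 to 54, the last without wild-type CLIP 2. The calls of Inhba in both genotypes, of Per1 and Jund in wild type and of Gem, Npas4 and Ptgs2 in knockout held under every alternative. No member's called difference changed sign. The cause of these changes was not tested.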
